A study of Mus musculus with 13 samples.

Results

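The genes described here encode the CatSper calcium channel of the sperm tail and 2 further ion transporters of the same membrane domain, 10 of the 30479 genes in the deposited table. They were chosen by name: the pore subunits Catsper1, Catsper2, Catsper3 and Catsper4, the auxiliary subunits Catsperb, Catsperd, Catsperg1 and Catsperg2, the exchanger Slc9c1 and the potassium channel Kcnu1. All 10 were read in each of the 13 libraries, and all 10 passed the filter on low values in each fit.

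Libraries came from mice labelled Wfdc15a knockout (KO), heterozygous (Het) or wild type (WT), all at postnatal day 25, in a study of what Wfdc15a does in spermatogenesis. Sorted round spermatids, the haploid cells that follow meiosis, gave 3 KO, 2 Het and 2 WT libraries of 100 to 200 cells each. Whole testis, stripped of its outer capsule, gave 3 KO, 1 Het and 2 WT libraries, each made from 2 ng of total RNA. The labels describe neither the allele nor the strain, and whether the replicates of a group are separate mice is not stated. The p-values below are therefore measured against the spread of these samples alone, part or all of which may be technical. Wfdc15a itself was at 116, 36.8 and 44.3 RPM (reads scaled to the library total) in KO testis replicates 1 to 3, at 48.4 RPM in Het testis and at 212 and 207 RPM in WT testis. It was at 97.9, 67.4 and 48.1 RPM in KO round spermatids, at 65.0 and 71.5 RPM in the Het libraries and at 267 and 234 RPM in WT. Het and KO were thus both below WT, and the level of the gene did not separate them.

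CatSper is the calcium channel through which mouse sperm take up calcium when they hyperactivate, the vigorous tail beat needed to reach and enter the egg. Its pore is built from 4 different subunits, each encoded by its own gene, and the auxiliary subunits form a large canopy outside the membrane. The channel opens at alkaline pH inside the cell. The exchanger encoded by Slc9c1 moves protons out of sperm and is itself governed by membrane voltage, and the potassium channel encoded by Kcnu1, also called SLO3, opens on alkalinisation and makes the membrane voltage more negative. Loss of the CatSper pore subunits, of Slc9c1 or of Kcnu1 makes male mice infertile. The messenger RNAs are made in the germ line during and after meiosis, before the tail is complete.

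In build mm10, Catsper1 lies on chromosome 19 (5335741 to 5344280, plus strand), Catsper2 on chromosome 2 (121392631 to 121413792, minus strand), Catsper3 on chromosome 13 (55784568 to 55808998, plus strand) and Catsper4 on chromosome 4 (134211970 to 134227383, minus strand). Catsperb lies on chromosome 12 (101404653 to 101626009, plus strand) and Catsperd on chromosome 17 (56628143 to 56664456, plus strand). Slc9c1 lies on chromosome 16 (45535309 to 45607001, plus strand) and Kcnu1 on chromosome 8 (25849623 to 25937939, plus strand). All are protein-coding. The libraries do not record the strand, and 18 exonic bases of Catsper2 overlap Pdia3 on the opposite strand, so reads there could belong to either gene.

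The libraries of both cell types fell apart along a line other than genotype. Along principal component 1, with 55.6% of the variance of the round spermatid libraries and 71.6% of that of the testis libraries, both WT libraries and KO replicate 1 stood on one side, opposite the Het libraries with KO replicates 2 and 3. Library totals ran from 7375270 to 20927428 reads. All 11 round spermatid markers, such as Acrv1 and Tnp1, were at 1 RPM or more in each round spermatid library. Their summed level was 1670, 1469 and 1022 RPM in KO round spermatids, 1382 and 1466 RPM in the Het libraries and 1979 and 1899 RPM in WT. In all KO libraries 6 of the 11 lay below WT and 1 above, against 19.4% and 16.6% of all genes. In testis the summed level was 1602, 719 and 536 RPM in KO, 651 RPM in Het and 4170 and 1916 RPM in WT. Of 10 markers of meiotic spermatocytes, 8 to 10 reached 1 RPM in each round spermatid library. Against WT round spermatids, 5 of the 10 were higher without overlap in KO and 9 in Het, against 16.6% and 40.6% of all genes. Their medians were +0.76 and +1.46, against +0.03 and +0.23 for all genes. In testis the KO minus WT median was +1.34, against +0.63. The summed level of the 10 Sertoli cell markers in round spermatids was 8.60, 255 and 253 RPM in KO replicates 1 to 3, 100.8 and 107 RPM in the Het libraries, and 11.7 and 8.39 RPM in WT. That of 6 markers of interstitial stroma was 2.1, 621 and 1059 RPM in KO, 534 and 477 RPM in the Het libraries, and 5.14 and 3.19 RPM in WT. In testis the Sertoli sum was 18.8, 1916 and 2061 RPM in KO replicates 1 to 3, 1908 RPM in Het, and 78.4 and 68.7 RPM in WT. In round spermatids 3 to 9 of the 10 Sertoli markers reached 1 RPM in KO, 6 to 7 in Het and 2 to 4 in WT, and Amh was at 0 in all but KO replicate 3. Col1a2, Col3a1 and Pdgfra of the stroma list were at 0 in KO replicate 1 and Lum in both WT libraries. The part of these cells in the comparisons of genotypes was not tested.

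Catsperg1 and Catsperg2 lie on the minus strand of chromosome 7 in build mm10, from 29181321 to 29214035 and from 29697219 to 29727032. Their coding sequences, of 3453 and 3435 bases, matched at 96.4% of the 3432 aligned positions. A stretch of each is shown because it makes plain how reads could be split between them. It runs from coding base 25 to 114, with the 3 bases that differ in capitals.
Catsperg1: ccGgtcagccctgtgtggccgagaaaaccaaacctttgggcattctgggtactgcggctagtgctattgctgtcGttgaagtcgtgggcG
Catsperg2: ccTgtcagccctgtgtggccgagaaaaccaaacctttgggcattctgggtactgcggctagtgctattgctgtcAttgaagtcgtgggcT
Of all windows of 50 bases in the coding sequence of Catsperg1, 42.3% occurred letter for letter in Catsperg2. How the authors' counting handled such reads is not given in the sources used here, so the levels of this pair are uncertain with respect to each other.

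RefSeq start regions (GRCm38.p6, from 250 bases before the transcription start to 50 after it) were matched by symbol for 7 of the 10 genes. The cAMP response element half-site TGACG was searched on both strands because cAMP-responsive factors act in spermatids, and it occurred in 20.8% of 32851 RefSeq start regions. It was found once in the region of Catsper2 and 3 times in the upstream one of the 2 regions of Catsperd. The X-box, the inverted repeat of 14 bases bound by RFX factors, occurred in 0.451% of all start regions. Among these genes it was found only in the upstream one of the 2 regions of Catsperg1. The CCAAT element, in 37.4% of all regions, was found in those of Catsper2, Catsperb and Slc9c1. The region of Catsper2 (chr2:121413743-121414042, minus strand) and the upstream one of Catsperg1 (chr7:29213984-29214283, minus strand) are shown. Each holds a half-site or X-box match, and both genes were higher in WT round spermatids than in WT testis. The upstream region of Catsperd also holds matches and is not shown, so the choice of these 2 regions says nothing about motif and level. Capitals mark the TGACG half-site, read as CGTCA on the opposite strand, and the X-box.
Catsper2: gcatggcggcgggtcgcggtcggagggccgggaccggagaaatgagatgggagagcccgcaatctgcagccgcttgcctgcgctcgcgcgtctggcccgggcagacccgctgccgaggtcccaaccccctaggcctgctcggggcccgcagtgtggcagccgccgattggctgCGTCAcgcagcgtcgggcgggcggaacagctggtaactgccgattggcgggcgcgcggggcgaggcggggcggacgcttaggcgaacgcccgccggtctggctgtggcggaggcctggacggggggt
Catsperg1: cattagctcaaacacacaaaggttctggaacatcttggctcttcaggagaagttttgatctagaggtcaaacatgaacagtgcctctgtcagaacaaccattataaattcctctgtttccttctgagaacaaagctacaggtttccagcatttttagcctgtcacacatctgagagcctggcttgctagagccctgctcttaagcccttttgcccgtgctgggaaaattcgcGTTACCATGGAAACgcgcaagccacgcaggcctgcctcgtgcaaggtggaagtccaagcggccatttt
The half-site of Catsper2 began 77 bases before the start and the X-box of Catsperg1 began 18 bases before it. These are matches of letters and not sites shown to be bound. Catsper3 was also higher in WT round spermatids (+1.91), and its start region held neither the half-site nor the X-box. Catsperd, with 3 half-sites, differed by -0.01 between the WT preparations. Whether these elements go with the level of a gene was not tested.

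The first comparison set the WT libraries of sorted round spermatids against those of whole testis, which mixes germ cells of several stages with other cells. The preparations also differ in input (100 to 200 cells against 2 ng of RNA). At which stage of the germ line the genes are on cannot be read from this contrast. In WT round spermatids 5 of the 10 genes were higher than in WT testis, and none was lower. Those 5 were the pore subunits Catsper1, Catsper2 and Catsper3, the auxiliary subunit Catsperg1 and the potassium channel Kcnu1. Over the whole table, 9.09% of 20085 genes were called higher and 2.39% lower (limma, Benjamini-Hochberg adjusted p under 0.05). The median difference of the 10 genes was +1.70 on the log2(RPM + 1) scale, against +0.20 for all genes tested. For the same contrast in KO and in Het, the share of all genes without overlap was not counted, and Het testis is 1 library. In KO and in Het libraries, Catsper2, Catsper3 and Kcnu1 were also higher in round spermatids than in testis without overlap. So was Catsper1 in Het, but KO testis replicate 1 (167 RPM) lay above every KO round spermatid library (highest 106 RPM). Catsperg1 did not share this. It was at 103 and 106 RPM in Het round spermatids against 108 RPM in Het testis. In KO it was at 59.6, 97.8 and 104 RPM against 60.2, 92.7 and 95.9 RPM.

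Among the pore subunits, Catsper1, the subunit that gave the channel its name, was at 131 and 143 RPM in WT round spermatids and at 7.92 and 15.1 RPM in WT testis. The preparations did not overlap, and the difference of +3.52 (SE 0.60, limma adjusted p = 0.00368) was the largest among the 10 genes. Catsper2, the most abundant of them, was at 552 and 619 RPM in round spermatids and at 137 and 174 RPM in testis, a difference of +1.91 (SE 0.51, limma adjusted p = 0.0337). Catsper3 was at 126 and 97.7 RPM against 27.6 and 30.03 RPM, which gave the same +1.91 with a smaller error (SE 0.34, limma adjusted p = 0.00483). Catsper4 was at 117 and 113 RPM against 44.4 and 37.1 RPM. Its difference of +1.48 (SE 0.44, limma adjusted p = 0.0529) missed the threshold although the preparations did not overlap.

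The auxiliary subunits were less alike. Catsperg1 was at 72.02 and 74.5 RPM in WT round spermatids and at 24.3 and 12.4 RPM in WT testis (+2.01, SE 0.40, limma adjusted p = 0.00846). Its paralog Catsperg2 was at 110.2 and 112 RPM against 59.9 and 80.3 RPM (+0.67, adjusted p = 0.585). The remaining subunits were closer between the preparations: Catsperb was at 67.3 and 60.1 RPM against 44.8 and 49.5 RPM, and Catsperd at 194 and 156 RPM against 199 and 154 RPM. The fitted differences were +0.42 (SE 0.66) for Catsperb and -0.01 (SE 0.38) for Catsperd, both within their errors.

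Of the other transporters, Kcnu1 was at 109.9 and 137 RPM in WT round spermatids and at 19.3 and 34.6 RPM in WT testis, a difference of +2.20 (SE 0.59, limma adjusted p = 0.0353). Slc9c1 was at 186 and 145 RPM against 88.5 and 75.0 RPM (+1.003, SE 0.65, adjusted p = 0.396). In 9 of the 10 genes, all but Catsperd, both round spermatid libraries lay above both testis libraries, as was so for 38.6% of all genes tested, and none lay wholly below, as 23.7% of all genes did. In bulk samples, a smaller share of expressing cells and less RNA per cell cannot be told apart.

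**Figure D1:**
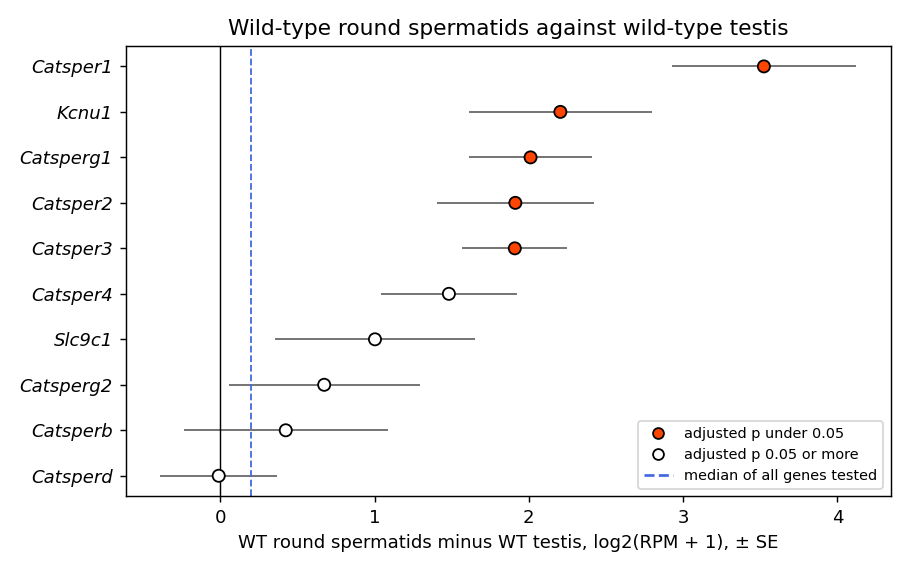
Difference between WT round spermatids and WT testis for each of the 10 genes on the log2(RPM + 1) scale, with bars of 1 standard error (n = 2 libraries in each preparation). Filled points passed the adjusted p threshold, and the dashed line is the median of all genes tested. Catsper1 stands farthest to the right at +3.52 and Catsperd lies at -0.01.

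Against the median of all genes, which was itself shifted by +0.20, Catsper1 lay 3.33 higher, Kcnu1 2.01, Catsperg1 1.81, Catsper2 1.72 and Catsper3 1.71 on the same scale. Summed Leydig cell markers were at 1.40 and 0.294 RPM in WT round spermatids and 40.1 and 50.4 RPM in WT testis. The sums for Sertoli cells, interstitial stroma, peritubular myoid cells and meiotic spermatocytes were also lower in WT round spermatids. Those for leukocytes (9.99 and 19.7 RPM against 7.10 and 5.19 RPM), endothelium and spermatogonia were higher. Of the 11 round spermatid markers, 5 were higher in round spermatids without overlap and 5 lower (median +0.33), against 38.6% and 23.7% of all genes. Acrv1 was at 354 and 312 RPM in WT round spermatids against 74.4 and 60.5 RPM in WT testis, and Prm1 at 149.6 and 152 RPM against 1106 and 546 RPM. The part of cell composition in these differences was not tested. The number of the 10 genes called was 3 with libraries centred on their medians and 2 after quantile normalization, against 5.88% and 9.25% of all genes. It was 3, 2, 1 and 2 without WT testis replicate 1, WT testis replicate 2, WT round spermatid replicate 1 and WT round spermatid replicate 2, against 3.37% to 5.83% of all genes. Catsper1 passed under each of the alternatives run except centring, where its difference was +3.18 (limma adjusted p = 0.0666, range over its alternatives 2.81 to 3.95 in log2 difference).

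Levels can be compared between genes only per length, here per kilobase of the protein-coding transcript used for its length. In WT round spermatids Catsper2 came first at 260.4 RPM per kb, well clear of the second gene. Catsper3 (84.0 RPM per kb), Catsperd (68.4) and Catsper4 (66.8) followed, each overlapping its neighbour in this order. Catsper1 (62.5) was below both libraries of Catsper4, and Slc9c1 (43.2) and Kcnu1 (35.0) overlapped each other. Catsperg2 (28.1), Catsperg1 (19.97) and Catsperb (17.1) closed the order without overlap. The pore subunits other than Catsper2 thus lay within a narrow band of 62.5 to 84.0 RPM per kb. With the length of all annotated exons in place of the transcript, Catsper2 still came first (158 RPM per kb), followed by Catsper3 (82.1) and Catsper1 (62.5).

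In WT testis the order per kb was different. Catsper2 (69.2 RPM per kb) and Catsperd (69.0) headed it and overlapped. Catsper4 (23.6), Catsper3 (21.7), Slc9c1 (21.3) and Catsperg2 (17.7) formed an overlapping run, followed by Catsperb (12.7). Kcnu1 (7.62), Catsper1 (5.25) and Catsperg1 (5.002) came last and overlapped in turn. Catsper1 was thus next to last in WT testis and the fifth in WT round spermatids.

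**Figure D2:**
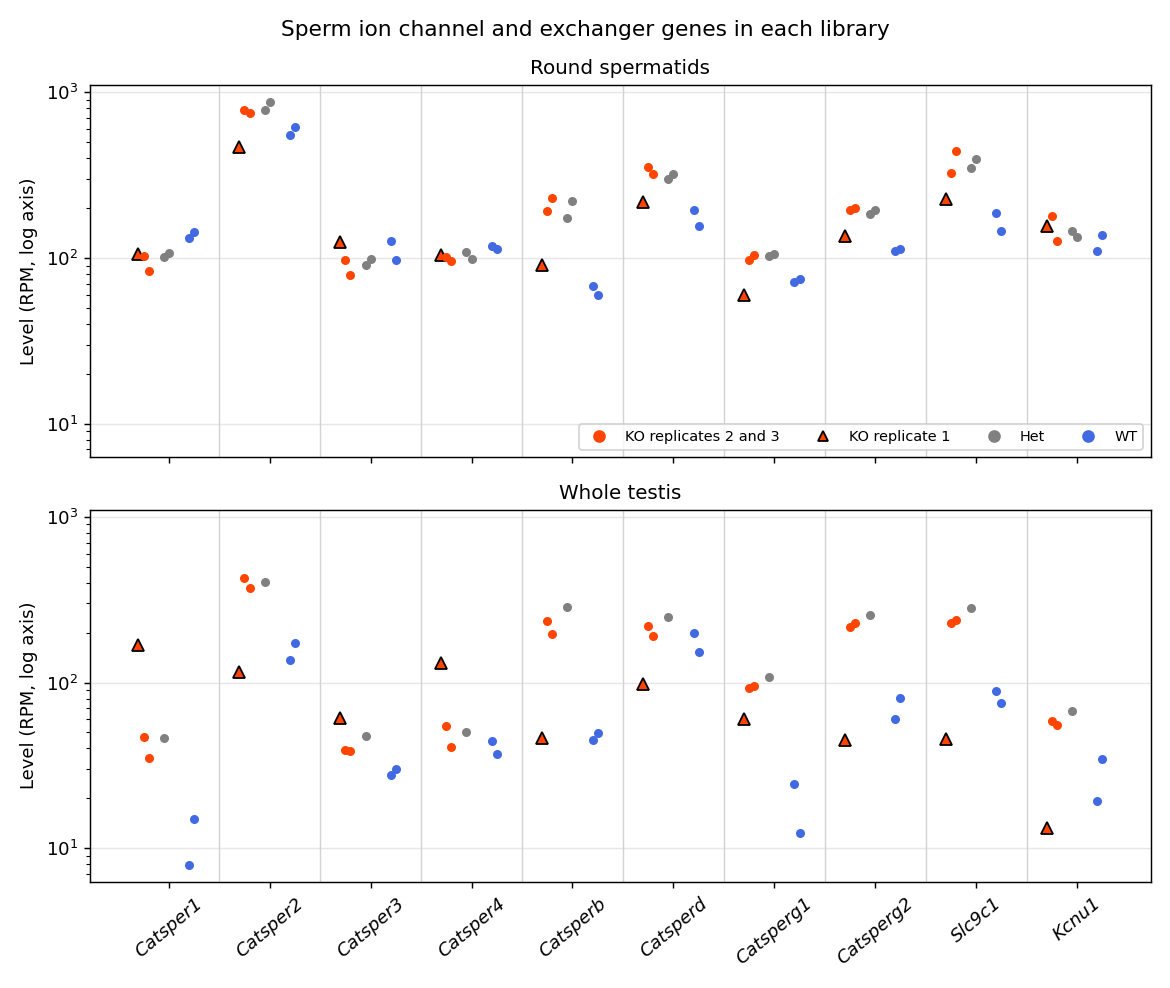
Level of each gene in every library in RPM on a log axis, round spermatids above and whole testis below. Within each gene the KO libraries stand to the left, with KO replicate 1 as a triangle, then Het, then WT. In testis the triangle lies apart from the other KO libraries for most genes, for example at 167 RPM against 46.6 and 35.2 RPM for Catsper1 and at 45.4 RPM against 229 and 238 RPM for Slc9c1.

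The comparison of KO with WT round spermatids asks whether the genotype goes with a change in the sorted spermatids. No member passed the threshold (limma, 0 of 10, with 0 of 18075 genes called, 0%). Voom on the recovered reads called 0 as well, while 5 of the 10 genes and 21.1% of all genes had an unadjusted p under 0.05. Catsperb, Catsperd, Catsperg2 and Slc9c1 lay above both WT libraries in all 3 KO libraries, against 16.6% of all genes. Catsper1 and Catsper4 lay below both, against 19.4% of all genes. The median difference of the 10 genes was +0.25, against +0.03 for all genes.

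Catsperb, an auxiliary subunit with a large extracellular part, was at 90.03, 191 and 231 RPM in KO replicates 1 to 3, at 174 and 222 RPM in Het and at 67.3 and 60.1 RPM in WT. All KO and Het libraries lay above WT, and KO replicate 1 was the nearest to WT. The KO minus WT difference was +1.31 (SE 0.35, limma adjusted p = 0.131). Catsperd, which is needed for a stable channel in mouse sperm, was at 218, 352 and 322 RPM in KO, at 301 and 323 RPM in Het and at 194 and 156 RPM in WT. The pattern of libraries was the same, with KO minus WT at +0.74 (SE 0.23, limma adjusted p = 0.140).

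Catsperg2 was at 135, 195 and 201 RPM in KO, at 183 and 194 RPM in Het and at 110.2 and 112 RPM in WT (KO minus WT +0.64, SE 0.21, limma adjusted p = 0.153). Its paralog Catsperg1 was at 59.6, 97.8 and 104 RPM in KO, at 103 and 106 RPM in Het and at 72.02 and 74.5 RPM in WT. Here KO replicate 1 was the lowest library of all and the other KO and Het libraries lay above WT, so that KO and WT overlapped. Slc9c1 was at 225, 328 and 443 RPM in KO, at 351 and 395 RPM in Het and at 186 and 145 RPM in WT. Its KO libraries spanned a wide range and none overlapped WT (KO minus WT +0.96, SE 0.26, limma adjusted p = 0.132).

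Catsper1 went the other way. It was at 106, 102 and 84.0 RPM in KO round spermatids, at 101.5 and 107 RPM in Het and at 131 and 143 RPM in WT. Every KO and Het library lay below WT, and the KO minus WT difference was -0.49 (SE 0.20, limma adjusted p = 0.197). Catsper4 was at 105, 102 and 95.3 RPM in KO, at 109 and 98.3 RPM in Het and at 117 and 113 RPM in WT, a narrow spread with a difference of -0.20 (SE 0.18). Catsper3 was at 125, 96.8 and 78.8 RPM in KO, at 90.8 and 98.9 RPM in Het and at 126 and 97.7 RPM in WT. Its KO and WT libraries overlapped. Catsper2 was at 469, 787 and 745 RPM in KO, at 778 and 876 RPM in Het and at 552 and 619 RPM in WT, with KO replicate 1 below WT and the other 2 KO libraries above. Kcnu1 was at 156, 178 and 126 RPM in KO, at 146 and 133 RPM in Het and at 109.9 and 137 RPM in WT, where the groups overlapped.

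Without KO replicate 1, 6 of the 10 genes passed, 5 higher (Catsper2, Catsperb, Catsperd, Catsperg2 and Slc9c1) and Catsper1 lower, against 19.5% and 11.3% of all genes called in these directions. In that fit KO and WT stand on opposite sides of the principal component described above, and genotype cannot be told apart from it.

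Het minus WT in round spermatids gave no call among the 10 genes (limma, smallest adjusted p = 0.0639, 0% of all genes called). Voom called 0, and 4 of the 10 had an unadjusted p under 0.05, against 25.1% of all genes. Of these genes, 6 lay above WT and 2 below WT in both Het libraries, against 40.6% and 23.2% of all genes. The median difference was +0.50, against +0.23 for all genes. KO against WT and Het together gave no call and no gene whose groups did not overlap, where 1.36% of all genes lay higher and 4.9% lower. The smallest adjusted p was 0.989, no member had an unadjusted p under 0.05 (4.56% of all genes did), and voom called 0. The median difference was +0.08, against -0.04 for all genes. The comparisons with WT share the same 2 WT libraries.

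**Figure D3:**
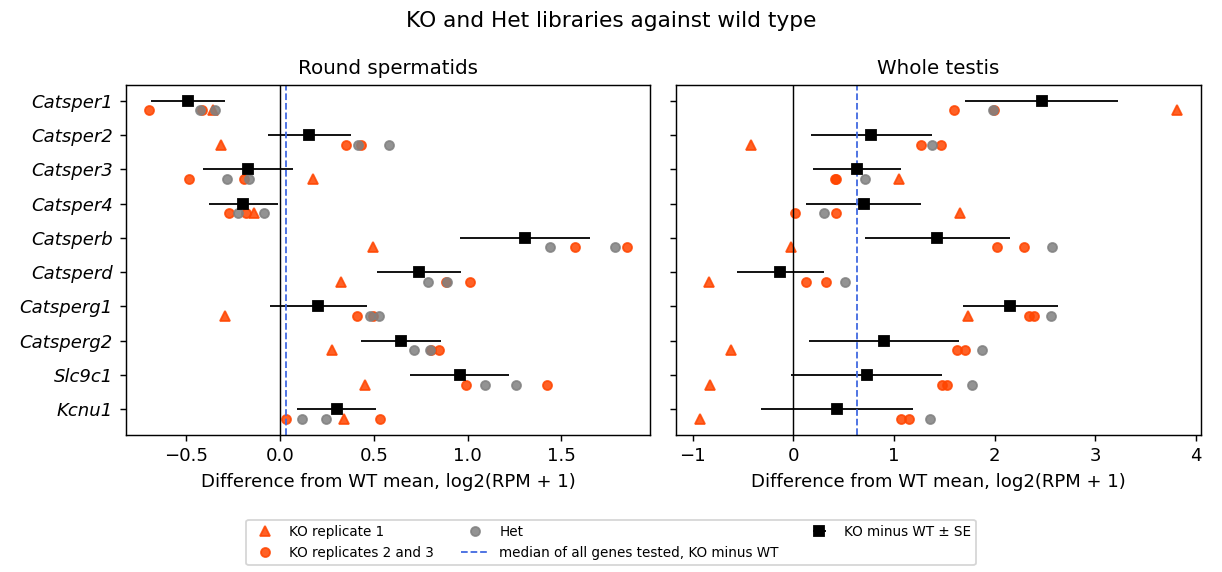
Difference of each KO and Het library from the WT mean on the log2(RPM + 1) scale (triangles and circles), with the fitted KO minus WT difference and its standard error as black squares, in round spermatids on the left and whole testis on the right. Dashed lines mark the median of all genes tested. The Catsperb square lies at +1.31 in round spermatids, and the Catsper1 squares lie at -0.49 in round spermatids and +2.47 in testis.

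In whole testis KO minus WT gave no call among the 10 genes (limma, 0% of 18570 genes called). Voom called 0, and 2 of the 10 genes, Catsper1 and Catsperg1, had an unadjusted p under 0.05, against 23.6% of all genes. In 3 genes all KO libraries lay above WT, against 28.2% of all genes, and in none did all lie below, against 14.1%. The median difference was +0.75, against +0.63 for all genes, and the shift of the whole table is part of each value below.

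Catsper1 was at 167, 46.6 and 35.2 RPM in KO testis replicates 1 to 3, at 46.3 RPM in Het and at 7.92 and 15.1 RPM in WT. KO replicate 1 stood far above the rest, and WT lay below all other libraries. The KO minus WT difference was +2.47 (SE 0.76, limma adjusted p = 0.129), or 1.84 above the median of all genes. Catsper4 was at 131, 55.0 and 41.0 RPM in KO, at 50.6 RPM in Het and at 44.4 and 37.1 RPM in WT. Catsper3 was at 60.9, 39.1 and 38.7 RPM in KO, at 47.7 RPM in Het and at 27.6 and 30.03 RPM in WT. In both genes KO replicate 1 was again the highest testis library. The fourth pore subunit did not share this. Catsper2 was at 115, 429.9 and 374 RPM in KO, at 402 RPM in Het and at 137 and 174 RPM in WT, and KO replicate 1 was the lowest.

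Catsper2 was 0.964 times the mean of the other 3 pore subunits in KO testis replicate 1, and 9.17 and 9.77 times in KO replicates 2 and 3. This ratio was 8.35 in Het testis and 5.15 and 6.35 in WT testis. In KO round spermatids it was 4.19, 7.85 and 8.66, in Het 7.76 and 8.63 and in WT 4.42 and 5.25. The value in KO testis replicate 1 was the lowest of the 13 libraries.

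Among the auxiliary subunits in testis, Catsperg1 was at 60.2, 92.7 and 95.9 RPM in KO, at 108 RPM in Het and at 24.3 and 12.4 RPM in WT. All KO libraries lay above WT, and the KO minus WT difference was +2.16 (SE 0.47, limma adjusted p = 0.0780). Catsperg2 was at 44.9, 217 and 228 RPM in KO, at 257 RPM in Het and at 59.9 and 80.3 RPM in WT. Here KO replicate 1 lay below WT and the other KO libraries above it. The level of Catsperg2 over that of Catsperg1 was 0.745, 2.34 and 2.38 in KO testis, 2.39 in Het and 2.47 and 6.47 in WT, and KO replicate 1 was the only library in which Catsperg1 exceeded its paralog. In round spermatids the ratio ran from 1.51 to 2.27 over all 7 libraries.

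Catsperb was at 46.4, 235 and 195 RPM in KO testis, at 285 RPM in Het and at 44.8 and 49.5 RPM in WT. KO replicate 1 fell between the WT libraries. Catsperd was at 97.5, 220.0 and 191 RPM in KO, at 249.8 RPM in Het and at 199 and 154 RPM in WT, and was the only member with a negative fitted difference (-0.13, SE 0.43). Slc9c1 was at 45.4, 229 and 238 RPM in KO, at 281 RPM in Het and at 88.5 and 75.0 RPM in WT. Kcnu1 was at 13.2, 58.5 and 55.6 RPM in KO, at 67.8 RPM in Het and at 19.3 and 34.6 RPM in WT. For both of these transporters KO replicate 1 was the lowest testis library and KO replicates 2 and 3 lay above WT.

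Without KO replicate 1, 7 of the 10 genes were called higher in KO testis and none lower, against 51.2% and 14% of all genes. These were Catsper1, Catsper2, Catsperb, Catsperg1, Catsperg2, Slc9c1 and Kcnu1, and here too genotype and the side of the principal component cannot be told apart. With the side as a covariate, where KO minus WT rests on KO replicate 1 alone, 4 genes were called higher (Catsper1, Catsper3, Catsper4 and Catsperg1) and 2 lower (Catsperd and Slc9c1), against 18.4% and 19.2% of all genes.

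The single Het testis library lay above both WT libraries in all 10 genes, as did 67.2% of all genes, and none lay below both, as 22.5% did. No gene was called (limma, smallest adjusted p among the 10 genes = 0.177, 0% of all genes), voom called 0, and 2 of the 10 had an unadjusted p under 0.05, against 19.8% of all genes. The median difference was +1.58, against +1.02 for all genes. KO against WT and Het together gave no call, and no gene's groups were free of overlap, where 4.47% of all genes lay higher and 3.96% lower. The smallest adjusted p was 0.890, no member had an unadjusted p under 0.05 (2.57% of all genes did), and voom called 0. Between WT and KO replicate 1 alone, 4 genes were called higher and 1 lower, against 42.1% of all genes called, and between Het and KO replicates 2 and 3 alone, 0, against 0.0627%. The first of these rests on 1 KO library and the second on 1 Het library.

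The KO effect differed between the cell types in none of the 10 genes at the threshold (limma interaction, against 2.13% of 20085 genes). Voom called 0, against 1.66% of all genes. By limma 2 of the 10 had an unadjusted p under 0.05, against 17.2% of all genes. Catsper1 came nearest, where the effect in round spermatids minus that in testis was -2.96 (SE 0.77, limma adjusted p = 0.0702), followed by Catsperg1 (-1.95, SE 0.51, limma adjusted p = 0.0742). The median over the 10 genes was -0.44, against -0.48 for all genes. Without KO testis replicate 1, 4 of the 10 genes were called, all negative, against 31.1% of all genes.

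The differences from WT in round spermatids tended to be larger in the genes that occupy more of the genome, a relation noticed in these values. Catsper1, the shortest of the 10 genes at 8.54 kb, lay lowest, and Catsperb, the longest at 221 kb, highest. Catsper4 spans 15.4 kb, Catsper2 21.2 kb and Catsper3 24.4 kb. Catsperg2 spans 29.8 kb, Catsperg1 32.7 kb, Catsperd 36.3 kb, Slc9c1 71.7 kb and Kcnu1 88.3 kb. Kcnu1, the longest after Catsperb, departed from the relation. Its difference was +0.34, +0.53 and +0.03 in KO replicates 1 to 3 and +0.24 and +0.12 in Het. That of the shorter Catsper2 was -0.32, +0.43 and +0.35 in KO and +0.41 and +0.58 in Het. Over the 10 genes, Pearson's r between the difference from the WT mean and log10 span was 0.79, 0.85 and 0.78 in KO replicates 1 to 3 and 0.80 and 0.78 in Het replicates 1 and 2. Over all 18075 genes the same r was -0.12, 0.05 and 0.06 in KO and 0.19 and 0.19 in Het. All 5 of the libraries are set against the same 2 WT libraries, so these are not separate observations, and 10 genes are few. Catsper1, Catsper3 and Catsper4, the genes with a negative KO minus WT difference, also had the shortest coding transcripts (2188, 1330 and 1725 bases). The part of transcript length was not tested.

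**Figure D4:**
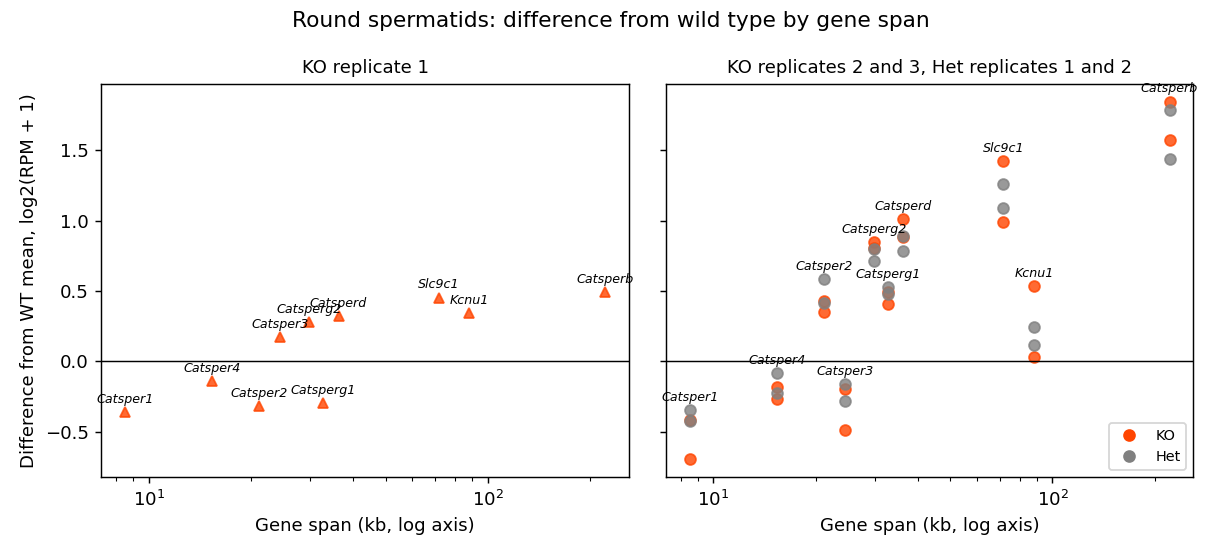
Difference from the WT mean in round spermatids, log2(RPM + 1), against the genomic span of each gene in kb on a log axis, for KO replicate 1 on the left and for KO replicates 2 and 3 with both Het libraries on the right. In both panels Catsper1 (8.54 kb) lies below 0 and Catsperb (221 kb) lies highest.

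In testis the relation did not hold across libraries. There r was -0.65, 0.25 and 0.31 in KO replicates 1 to 3 and 0.37 in Het over the 10 genes, and 0.08, 0.22 and 0.21 in KO and 0.27 in Het over all 18570 genes. KO testis replicate 1 had 4 of the 10 genes above both WT libraries and 5 below, against 37.8% and 43.9% of all genes. The 4 were Catsper1, Catsper3, Catsper4 and Catsperg1.

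The 9 further genes of the CatSper complex on a list of other subunits and partners had 1 member called higher in WT round spermatids than in WT testis, against 9.09% of all genes, and none lower. That was C2cd6, a CatSper-associated protein that helps carry the channel to the tail, at 801 ± 90.4 RPM in WT round spermatids and 341 ± 34.5 RPM in WT testis (SD, n = 2 each; limma adjusted p = 0.00604). Efcab9 and Catsperz encode partners that form a calcium sensor below the pore. Efcab9 was at 356 ± 51.5 RPM against 99.9 ± 20.7 RPM (limma adjusted p = 0.0886), and Catsperz at 993 ± 67.5 RPM against 2139 ± 141 RPM (limma adjusted p = 0.137). Neither difference passed the threshold. Slco6c1, a transporter-like protein found with CatSper, was at 359.9 ± 77.0 RPM against 357 ± 6.91 RPM. Trim69 was at 356 ± 33.1 RPM against 474 ± 9.61 RPM, and the auxiliary subunit Catspere1 at 47.6 ± 24.5 RPM against 31.7 ± 2.72 RPM. The median over the 9 genes was +0.48, against +0.20 for all genes, and voom called 4 of them, against 12.5% of all genes.

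Between KO and WT none of these 9 genes passed the test in round spermatids or testis, and voom called 0. In round spermatids their median was -0.46, against +0.03 for all genes, and 6 of the 9 had an unadjusted p under 0.05 by limma, against 21.1%. In testis the median was -0.17, against +0.63, and 4 had such a p, against 23.6%. In round spermatids 1 lay above WT in all KO libraries, against 16.6% of all genes, and 4 below, against 19.4%. Catsperz was at 892, 548 and 473 RPM in KO round spermatids, at 508 and 453 RPM in Het and at 1041 and 945 RPM in WT. Efcab9 was at 279, 173 and 97.1 RPM in KO, at 139 and 132 RPM in Het and at 393 and 320 RPM in WT. In both genes every KO and Het library lay below WT, with KO replicate 1 the nearest to it. In testis Catsperz was at 739, 273 and 283 RPM in KO, at 287 RPM in Het and at 2239 and 2039 RPM in WT, again without overlap.

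**Figure D5:**
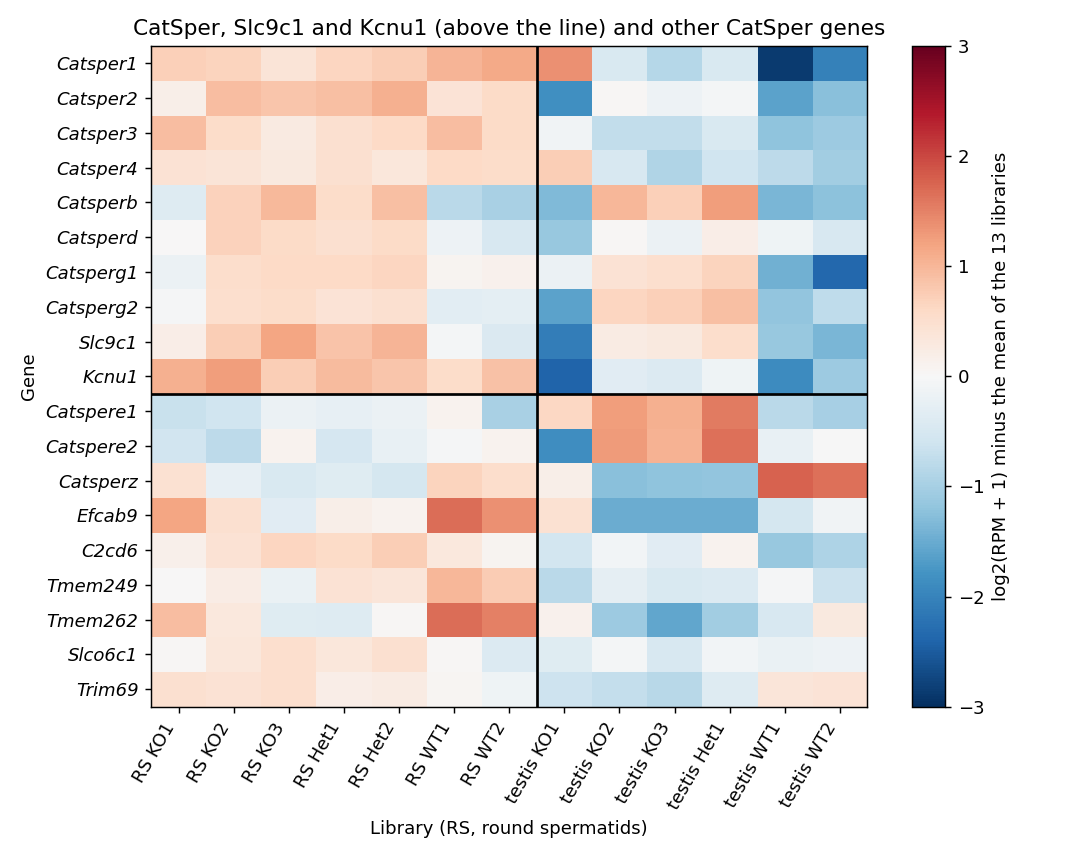
Level of the 10 genes (above the horizontal line) and 9 other CatSper genes in each library as log2(RPM + 1) minus the gene's mean over the 13 libraries, with round spermatids left of the vertical line and KO, Het and WT from left to right within each. Catsper1 is lowest in the WT testis libraries, at 7.92 and 15.1 RPM, where Catsperz is highest, at 2239 and 2039 RPM.

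A second list held partners and other ion transporters of sperm, of which 14 of 15 could be tested. In WT round spermatids 2 of the 14 were higher than in WT testis, against 9.09% of all genes called higher, and their median difference was +0.78, against +0.20. Adcy10, the soluble adenylyl cyclase that works with Slc9c1, was at 187 ± 15.9 RPM against 32.6 ± 4.28 RPM (limma adjusted p = 0.00108). The other was the chloride channel Cftr, named after its values were seen, at 25.8 and 25.3 RPM against 2.28 and 1.71 RPM (limma adjusted p = 0.00917). The sperm exchangers Slc9b1 and Slc26a8 were at 410.0 ± 9.17 RPM against 315 ± 27.4 RPM and at 297 ± 1.03 RPM against 209.7 ± 28.9 RPM. The sodium pump subunits Atp1a4 and Atp1b3 were at 171 ± 1.30 RPM against 77.0 ± 46.8 RPM and at 210.4 ± 27.4 RPM against 185 ± 21.6 RPM. The lipid hydrolase Abhd2 was at 59.6 ± 3.55 RPM against 47.1 ± 34.5 RPM. None of the 14 genes passed between KO and WT in round spermatids, where the median was +0.16 against +0.03 for all genes, nor any of 13 in testis, where it was +0.69 against +0.63. By limma 2 of 14 and 3 of 13 had an unadjusted p under 0.05, against 21.1% and 23.6% of all genes, and voom called 0.

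Of 11 listed genes of cAMP and calcium signalling, 6 were higher in WT round spermatids than in WT testis, against 9.09% of all genes, with a median of +1.17 against +0.20. Akap3, an anchoring protein of the fibrous sheath of the tail, was at 272 ± 12.1 RPM against 26.6 ± 1.51 RPM in testis (limma adjusted p = 0.000349). Its partner Akap4 was at 505 ± 26.1 RPM against 215 ± 64.4 RPM (limma adjusted p = 0.0150). Prkar1a, a regulatory subunit of protein kinase A, was at 446 ± 57.2 RPM against 191 ± 51.9 RPM (limma adjusted p = 0.0112). Ppp3cc, the catalytic subunit of sperm calcineurin, was at 334 ± 23.0 RPM against 169 ± 2.30 RPM (limma adjusted p = 0.0170). Its regulatory subunit Ppp3r2 was at 1245 ± 30.3 RPM against 1956 ± 3.90 RPM, and the phosphatase Ppp1cc at 408 ± 2.60 RPM against 364 ± 15.8 RPM. None of the 11 genes passed between KO and WT, where the medians were -0.07 in round spermatids and +0.48 in testis, against +0.03 and +0.63 for all genes. By limma 1 and 6 of the 11 had an unadjusted p under 0.05, against 21.1% and 23.6% of all genes, and voom called 0.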

How the data were processed

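The series measured RNA by Smart-seq2, which copies whole polyadenylated transcripts without recording the strand, in 13 libraries, 7 of sorted round spermatids and 6 of whole testis. The deposited table holds log2 RPM per gene. Per the submitters' processing notes, the tools were HISAT2 2.1.0, FastQC 0.11.8 and Trim Galore 0.6.6, and the build mm10. The sources used here name no counting program and no annotation.

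The low values step by whole reads, with 0.9 read standing for none; between 99.7% and 99.995% of nonzero values came out whole within 0.01 read. Library totals of 7375270 to 20927428 reads put the level of 3 reads at 0.143 to 0.407 RPM, which covers counting error only. Because the deposited unit is log2 RPM and not a count, the main test was limma 3.58.1 (R 4.3.3, trended, two-sided, Benjamini-Hochberg, threshold 0.05) on log2(RPM + 1), where the change of a gene with few reads comes out too small. A gene entered a fit with 1 RPM or more in 2 or more of its libraries. Each cell type was fitted apart, and comparisons between cell types used all 13 libraries. The fit was run on simulated data with large planted changes. Those data lacked the split of libraries along the principal component, so the run cannot show how the fit performs on these libraries. Gene models were GENCODE M21, where all 10 genes have the coordinates of the table; the table has 0 columns beyond those of the 13 libraries.

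The 10 genes and all lists were chosen with earlier results of these data known. All 10 are named. From each of the 3 lists, up to 6 genes with the highest mean RPM over the 13 libraries are named, and the 5 genes most alike to the 10 genes' mean profile. Alternatives were a pseudocount of 0.1 RPM, no filter on low values, a filter on a mean of 5 RPM, centred or quantile-normalized libraries, library quality weights, voom fitted to the recovered reads, a replicate block, the side of the principal component as a covariate, 1 fit of all 13 libraries and leaving out each library. Fits within each side were added after the data were seen. No 2 libraries of a group agreed within sampling noise.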

Additional observations from a re-analysis of the deposited data

Results flagged for a closer look

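Catsper1 was the only one of the 10 genes whose KO and WT libraries did not overlap in either cell type and lay in opposite directions, all KO libraries above WT in testis and all below WT in round spermatids. Taken singly, 28.2% of all genes lay higher without overlap in KO testis and 19.4% lower in KO round spermatids. The share of all genes with opposite directions in the 2 cell types was not counted. The pattern thus cannot be called particular to Catsper1. The Het libraries lay on the same sides of WT as KO, at 46.3 RPM in testis and at 101.5 and 107 RPM in round spermatids (WT 131 and 143 RPM). The KO effect in round spermatids minus that in testis was -2.96 on the log2(RPM + 1) scale (SE 0.77, limma interaction, adjusted p = 0.0702). Over the alternatives the value ran from -4.17 to -1.98, and its adjusted p from 3.05e-05 to 0.421. It passed with a mean of at least 5 RPM (adjusted p = 0.0495), with library quality weights (-2.31), with the side of the principal component as a covariate (-4.17) and without KO testis replicate 1 (-2.28). The WT testis libraries, at 7.92 and 15.1 RPM, were the lowest of all 13 for this gene.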

How the results depend on the processing

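Counts of the 10 genes called stand here beside the share of all genes called in the same fit. For KO minus WT in testis, 0 became 7 with library quality weights (67.5% of all genes), 6 with the side of the principal component as a covariate (37.7%) and 2 in 1 fit of all 13 libraries (20.7%), and ran from 0 to 7 when a library was left out (7 without KO replicate 1, 65.2%). Het minus WT in testis went to 7 (57.3%), 3 (19.2%) and 1 (14.5%) under the same settings and to 1 with a replicate block (6.07%). KO against WT and Het in testis went to 7 with weights (70.5%), 1 in the fit of all libraries (5.08%) and 5 within WT and KO replicate 1 (42.1%). In round spermatids, KO minus WT went to 6 with weights (31.6%) and ran from 0 to 6 without a library (6 without KO replicate 1, 30.8%). Het minus WT there went to 1 with centred libraries (2.43%), 2 with quantile normalization (4.63%), 5 with weights (26.6%) and 2 with a replicate block (8.79%). WT round spermatids minus WT testis, with 5 calls (11.5%), gave 3 without the filter (8.14%), 3 with centring (5.88%), 2 with quantile normalization (9.25%), 8 with weights (31%), 8 with the covariate (37.2%) and 1 to 3 without a library (3.37% to 5.83%). The difference of KO effects, with 0 calls, gave 2 with a mean of at least 5 RPM (7.18%), 5 with weights (34.6%), 1 with a replicate block (2.94%), 6 with the covariate (26.3%) and 0 to 4 without a library (4 without KO testis replicate 1, 31.1%). The cause was not tested in these cases.

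Signs turned for KO minus WT in testis with centring (Catsper2 -0.17, Catsper3 -0.31, Catsper4 -0.24, Catsperg2 -0.038, Slc9c1 -0.22, Kcnu1 -0.51), with quantile normalization (Catsper3 -0.22, Catsper4 -0.045, Kcnu1 -0.28), with weights (Catsperd 0.23) and with the covariate (Catsper2 -0.42, Catsperb -0.022, Catsperg2 -0.62, Slc9c1 -0.83, Kcnu1 -0.93). Without a library Catsperd ran from -0.36 to 0.23, above 0 without WT replicate 1 or KO replicate 1. In round spermatids the covariate gave Catsper2 -0.32, Catsper3 0.17 and Catsperg1 -0.29, and Catsper3 ran from -0.35 to 0.012 without a library, above 0 without WT replicate 1. Between WT preparations Catsperb was at -0.033 with quantile normalization, and Catsperd ran from -0.19 to 0.17 without a library, above 0 without WT testis replicate 1 or WT round spermatid replicate 2. None of these genes had been called for the difference in question.

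Nothing in the labels ties same-numbered libraries to 1 animal. Their deviations correlated at -0.02 to 0.05 within a cell type. Between cell types the same-numbered KO libraries correlated at 0.50, 0.28 and 0.40 and the WT libraries at -0.02, and KO testis replicate 2 correlated more with KO round spermatid replicate 3 (0.34) than with replicate 2. Not every pair was thus over 0.1, and the block is given here as counts of calls. It gave 0 for KO minus WT in testis (0.819% of all genes) and in round spermatids (0%), and 6 between WT preparations (13.5%). Het minus WT in testis has no value without its single Het library. Each of the 10 genes had at least 97 reads in every library.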

Other observations

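The genes whose levels over the 13 libraries were most like the mean standardised profile of the 10 genes, among 20041 genes compared, were Tsga10 (Pearson's r = 0.991), Ttll6 (0.989), Usp50 (0.989), Pkdrej (0.988) and Oga (0.986). Tsga10 encodes a protein of the sperm tail, Ttll6 a tubulin polyglutamylase of cilia and flagella, and Pkdrej a polycystin-family protein of sperm. Tsga10 ranged from 147 to 667 RPM and Pkdrej from 8.73 to 98.5 RPM. The libraries share 2 preparations and 2 sides of the principal component, and the r values are a description.

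Each of the 10 genes was itself correlated with that mean profile at r between 0.54 (Catsper4) and 0.96 (Catsper2), with Slc9c1 at 0.90, Kcnu1 at 0.90 and Catsper1 at 0.66. Catsper2 took 27.8% to 33.1% of the summed RPM of the 10 genes in KO replicate 1 and WT replicate 1 of round spermatids, and 37.3% in WT replicate 2. In KO testis replicate 1 its share was 14.8%, the lowest of the 13 libraries.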
